A study of Mus musculus with 11 samples.

Results

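The expression of 51 genes of DNA damage signalling and repair was measured in cultured neural progenitor cells (NPCs) of the mouse, with and without deletion of *Smg6*. The genes were taken by name and repair pathway, with earlier results of these data known, and are 51 of the 53801 genes counted in each library. They were read in 8 groups: break-end processing (6 genes), homologous recombination (11), the Fanconi anaemia pathway (9), end joining (5), mismatch repair (2), base excision and single-strand break repair (6), nucleotide excision repair (4) and checkpoint signalling (8). *Smg6* encodes an endonuclease of nonsense-mediated mRNA decay (NMD), the process that degrades transcripts with premature stop codons.

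NPCs came from brains of E13.5 embryos on a mixed C57BL/6 and 129SV background and were grown with EGF and bFGF, and in all 3 groups both *Smg6* alleles were floxed (Smg6 Flox/Flox). The Ctr group (n = 3 libraries) carried the inducible recombinase (RosaCreER tg/+) and received no drug. The *Smg6*-iKO group (n = 4) carried the same recombinase and received 1 µM 4-hydroxytamoxifen (4-OHT), which switches the recombinase on. In the Ctr + 4-OHT group (n = 4) the recombinase was absent (RosaCreER +/+) and 4-OHT was given. Thus Ctr + 4-OHT shares the drug with *Smg6*-iKO, Ctr shares the recombinase, and the 2 controls differ from each other in both. The labels give 3 days of 4-OHT, and the methods put RNA isolation at 6 days from it. The recombinase is driven from the ubiquitous Rosa26 locus. The labels give each library a culture number, and SMH_128, SMH_132 and SMH_133 each occur once in Ctr and once in *Smg6*-iKO. Below, the libraries of Ctr are given in the order SMH_128, SMH_132 and SMH_133, those of Ctr + 4-OHT in the order SMH_125, SMH_126, SMH_129 and SMH_131, and those of *Smg6*-iKO in the order SMH_127, SMH_128, SMH_132 and SMH_133.

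DNA is repaired by several systems that recognise different lesions. Broken double strands are either trimmed and then copied from the sister chromatid by homologous recombination or sealed directly by end joining. The Fanconi anaemia proteins unhook crosslinks between strands. Mismatch, base excision and nucleotide excision repair replace wrong or damaged bases, and the kinases ATM and ATR with their partners signal damage and stalled forks to the cell cycle. Many recombination and checkpoint genes are known to be expressed mostly in S and G2 phase, whereas nucleotide excision repair is used throughout the cycle.

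Total RNA was sequenced by a stranded method after removal of ribosomal RNA, and between 26418249 and 33756875 reads were counted on genes per library. Levels are given as CPM, the normalised read count after every library is scaled to the same total, and differences as log2 fold changes with their standard errors, first against Ctr + 4-OHT and then against Ctr where 2 values are given. *Smg6* itself was counted at 69.4, 79.4 and 74.3 CPM in Ctr, at 66.5, 72.0, 72.3 and 66.6 CPM in Ctr + 4-OHT and at 62.5, 62.3, 71.9 and 67.5 CPM in *Smg6*-iKO. The groups overlapped, and these whole-gene counts do not show the floxed exons alone, so they do not check the deletion. Its log2 fold change was -0.06 (edgeR adjusted p = 0.703) against Ctr + 4-OHT and -0.17 (edgeR adjusted p = 0.148) against Ctr, or -0.15 (edgeR adjusted p = 0.043) with the culture number as a block. The 8 markers of neural progenitors were present in every group, with a summed level of 5008 to 5201 CPM in Ctr, 4435 to 5441 CPM in Ctr + 4-OHT and 4328 to 4902 CPM in *Smg6*-iKO. The 7 neuron markers summed to 1789.9 to 1976, 1644 to 2676 and 2094 to 2416 CPM in the same order. Against Ctr these markers moved as well: all 8 progenitor markers had negative values and 4 fell (*Hes5*, a target of Notch, at a log2 fold change of -1.28, edgeR adjusted p = 0.00186), and all 7 neuron markers had positive values, 5 of them above every Ctr library. By edgeR 0 neuron markers passed the threshold, with 5 at an unadjusted p under 0.05 and 5 passing with the culture number as a block. Against Ctr + 4-OHT 0 of either list passed by edgeR, with 2 progenitor markers and 0 neuron markers at an unadjusted p under 0.05. Between the 2 controls all 7 neuron markers were positive as well, with a median of 0.25 against 0.28 for *Smg6*-iKO against Ctr, and *Hes5* was at -0.59, with 2 progenitor markers at an unadjusted p under 0.05 and none called by edgeR. The part of these markers in the values of the repair genes was not tested. The summed level of 6 astrocyte markers lay between 799.8 and 1018 CPM and that of 6 oligodendrocyte lineage markers between 428 and 683 CPM. Of the astrocyte markers *Gfap*, an intermediate filament, rose against Ctr by a log2 fold change of 1.33 (edgeR adjusted p = 0.0288), and with the block 4 astrocyte markers (2 lower and 2 higher) and 3 oligodendrocyte lineage markers (all higher) passed. The part of these markers was not tested either. All 6 erythroid markers and 5 of 6 microglia markers stayed under 1 CPM on average, and the 6 markers of endothelium and mural cells summed to between 9.98 and 30.8 CPM. Of these, the 5 tested had positive values against Ctr + 4-OHT (median 0.64), 2 of them above every library of that control (5.03% of all genes) and at an unadjusted p under 0.05, and none called by edgeR. Their part in the values of the repair genes was not tested. In such bulk RNA a smaller number of cells of one type and less RNA per cell cannot be told apart.

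All 51 repair genes were expressed. Per kilobase of exon, their median level over the 11 libraries was 5.84 CPM per kb, against 4.67 CPM per kb for all genes tested. The levels spread widely. At the top were *Apex1*, the endonuclease that cuts DNA at sites without a base (55.6 CPM per kb), *Parp1*, the poly(ADP-ribose) polymerase that senses strand breaks (48.2), and *Msh6*, which recognises mismatches (34.3). The lowest were *Palb2*, which links BRCA1 to BRCA2 (1.69 CPM per kb), and *Atrip*, the partner of ATR (0.845). For *Atrip*, 49.91% of the exon bases are shared with another gene on the same strand, and reads on shared bases were not counted, so its level is uncertain. Within a group the libraries lay close together: the median coefficient of variation of the 51 genes was 5.92% in Ctr, 8.13% in Ctr + 4-OHT and 4.75% in *Smg6*-iKO.

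The first comparison asked how far the 2 controls differed in these genes. None of the 51 genes passed the threshold (adjusted p under 0.05 in edgeR's quasi-likelihood test, adjusted over all genes tested), beside 39 of 17665 genes in all (0.221%, 0.181% lower and 0.0396% higher). At an unadjusted p under 0.05 the count was also 0, beside 1462 of all 17665 genes, and the Wald test of DESeq2 called 0 of them and 168 genes in all. The median log2 fold change of Ctr + 4-OHT against Ctr was 0.013 over the 51 genes and 0.0045 over all genes tested. Values ran from -0.61 for *Rad51c*, which is described below, to 0.16 for *Exo1*, and *Xrcc3* and *Atrip* were the 2 genes whose Ctr + 4-OHT libraries all lay below those of Ctr (4.91% of all genes). None lay above (3.8%).

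In *Smg6*-iKO the log2 fold changes of the repair genes were small and more often negative than positive, and the pathways did not share one direction. Homologous recombination and checkpoint genes had mostly negative values against both controls, whereas the 4 listed nucleotide excision repair genes had positive log2 fold changes, *Ercc2* only just, and *Xpa* rose. Of 23 other genes of nucleotide excision repair, 14 had negative values in each comparison. Against Ctr + 4-OHT, *Xpa* was the only one of the 51 genes past the threshold, beside 206 of 17558 genes in all (1.17%, 0.416% lower and 0.757% higher). Of the 51 genes, 37 had a negative log2 fold change (47.2% of all genes tested were negative), with a median of -0.10 against 0.012 over all genes. At an unadjusted p under 0.05 there were 19 lower and 5 higher genes, beside 1347 lower and 1583 higher of all 17558. In 12 genes every *Smg6*-iKO library lay below every Ctr + 4-OHT library (5.99% of all genes tested) and in 4 genes above (5.03%). The Wald test of DESeq2 called 10 of the 51 genes (6.16% of all genes with an adjusted p), 8 of them lower (3.45%), namely *Brca1*, *Chek1*, *Clspn*, *Exo1*, *Msh6*, *Rad51ap1*, *Rad54l* and *Topbp1*, and 2 higher (2.71%), *Fancm* and *Xpa*. The number of called genes in this comparison thus depends on the test.

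Against Ctr, 11 of the 51 genes passed the threshold (9.25% of all genes tested). Of these, 9 fell (4.98%) and 2 rose (4.27%). The genes that fell were *Brca1*, *Bard1*, *Rad51b*, *Xrcc2*, *Rad51ap1*, *Rad54l*, *Fancd2*, *Msh6* and *Clspn*, and those that rose were *Fancm* and *Xpa*. The median log2 fold change was -0.11, against 0.0055 over all genes, and 35 of the 51 values were negative (49% of all genes). In 17 genes all *Smg6*-iKO libraries lay below all of Ctr (11.9% of all genes) and in 6 above (11.4%). The Wald test of DESeq2 called 18 (16.2%), 15 lower (9.43%) and 3 higher (6.76%). With the culture number as a block, 22 of the 51 genes passed (21.4%), 18 lower (11.2%) and 4 higher (10.3%): *Apex1*, *Blm*, *Chek1*, *Lig3*, *Rad51c*, *Timeless*, *Topbp1*, *Ung* and *Xrcc5* joined the genes that fell, and *Ercc3* and *Prkdc* those that rose. Both comparisons use the same *Smg6*-iKO libraries, and their values are therefore set side by side and not counted as separate evidence.

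**Figure D1:**
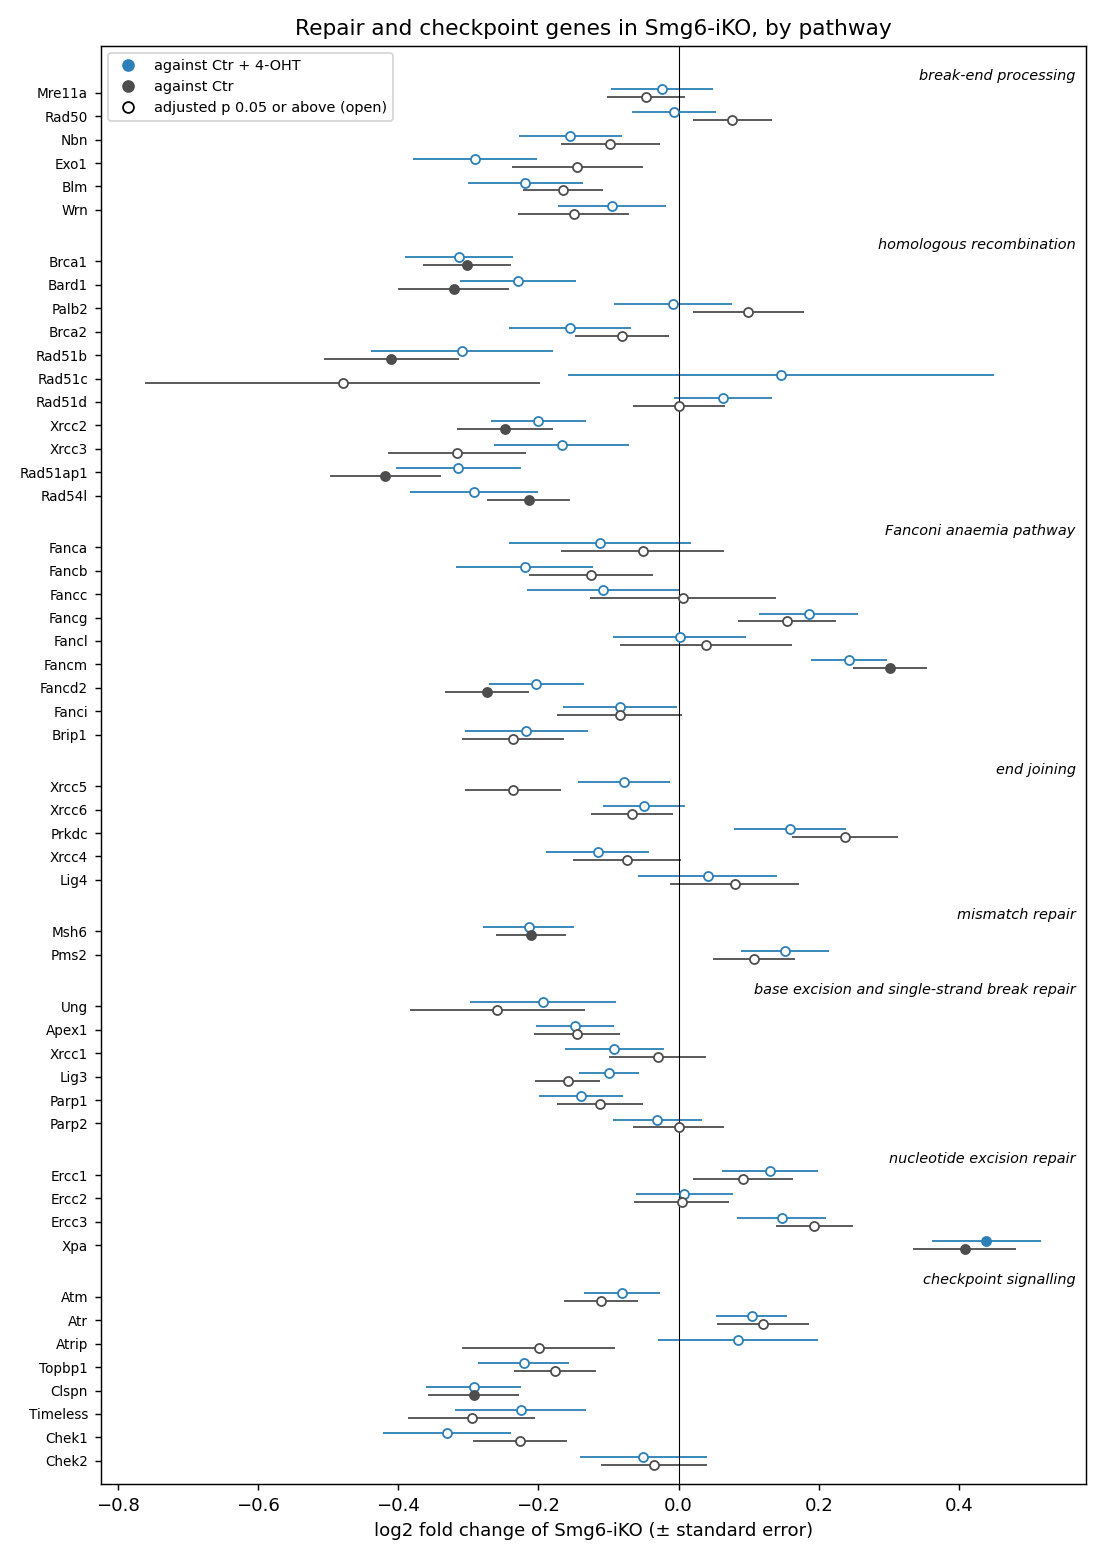
The log2 fold change (x axis) of each of the 51 genes in *Smg6*-iKO against Ctr + 4-OHT (blue) and against Ctr (grey), with standard errors, grouped by pathway; filled points have an adjusted p under 0.05. Most points of homologous recombination and checkpoint signalling lie left of 0, and *Xpa*, at 0.44 and 0.41, lies farthest to the right.

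Set against all 7 control libraries together, 11 of the 51 genes (21.6%) were lower in every *Smg6*-iKO library, compared with 3.6% of the 17512 genes tested in both comparisons, and 3 genes (5.88%) were higher in every one, compared with 2.99%. The lower genes were *Brca1*, *Xrcc2*, *Rad51ap1*, *Rad54l*, *Fancd2*, *Msh6*, *Apex1*, *Lig3*, *Topbp1*, *Clspn* and *Chek1*, and the higher ones were *Fancg*, *Fancm* and *Xpa*. Within cultures, 27 of the 51 genes (52.9%) were lower in *Smg6*-iKO than in Ctr in each of the 3 shared cultures, compared with 25.9% of all genes, and 8 (15.7%) were higher in each, compared with 25.8%. Lower in each culture were 9 of 11 genes of homologous recombination, 6 of 8 of checkpoint signalling and 4 of 6 of base excision and single-strand break repair, and higher in each were 3 of 4 of nucleotide excision repair.

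The markers of proliferating cells were lower in *Smg6*-iKO. All 18 markers had negative log2 fold changes in both comparisons, with medians of -0.36 against Ctr + 4-OHT and -0.33 against Ctr. Of the 51 repair genes, 14 and 16 had positive values in these comparisons. By edgeR 5 and 14 of the markers fell, beside 0.416% and 4.98% of all genes tested. Their summed level was 3692 to 3809 CPM in Ctr, 3489.6 to 4189 CPM in Ctr + 4-OHT and 2715 to 2990.5 CPM in *Smg6*-iKO, without overlap between *Smg6*-iKO and either control. No marker was at 0 in every library. The part of proliferation in the values of the repair genes was not tested.

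**Figure D2:**
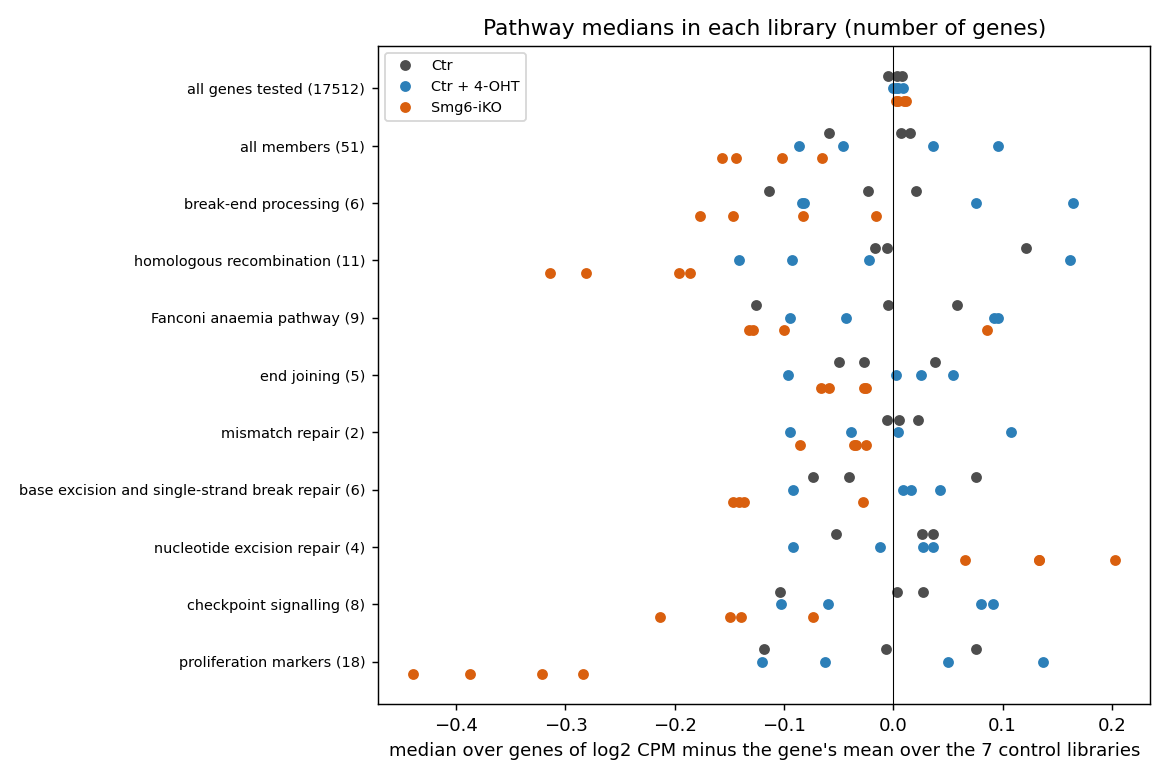
For every library (points), the median over the genes of a pathway of log2 CPM minus the mean of each gene over the 7 control libraries (x axis, log2 units); numbers of genes are in parentheses. The *Smg6*-iKO libraries lie between -0.31 and -0.19 for homologous recombination and between 0.07 and 0.20 for nucleotide excision repair, while the median of all genes tested lies between -0.0047 and 0.012.

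Homologous recombination held 6 of the 9 genes that fell against Ctr. Its 11 genes had a median log2 fold change of -0.20 against Ctr + 4-OHT and -0.30 against Ctr, with 9 of 11 values negative in each. The 22 other genes of homologous recombination had medians of -0.08 and -0.12, with 13 and 14 negative values. None of the 22 was called by edgeR against Ctr + 4-OHT (1.17% of all genes), with 3 at an unadjusted p under 0.05, and none lay apart from that control, while 1 fell against Ctr (4.98% of all genes), or 3 with the culture number as a block (11.2%). *Brca1* (ENSMUSG00000017146), which steers broken ends into recombination (chromosome 11, 101488764 to 101551955 on GRCm38), was at 64.5, 72.3 and 70.8 CPM in Ctr, at 67.8, 62.8, 80.1 and 70.3 CPM in Ctr + 4-OHT and at 56.0, 56.1, 53.3 and 59.2 CPM in *Smg6*-iKO. Every *Smg6*-iKO library was below all 7 controls. For *Brca1* the log2 fold change was -0.31 (standard error 0.077, edgeR adjusted p = 0.0841) against Ctr + 4-OHT and -0.30 (standard error 0.063, edgeR adjusted p = 0.018) against Ctr. *Bard1*, whose product pairs with BRCA1, was at 20.0, 22.5 and 19.8 CPM in Ctr, at 20.4, 17.1, 21.3 and 19.7 CPM in Ctr + 4-OHT and at 16.5, 16.98, 15.3 and 17.6 CPM in *Smg6*-iKO. It was below every Ctr library and overlapped Ctr + 4-OHT through SMH_126 alone. *Bard1* differed by -0.23 (edgeR adjusted p = 0.2) and -0.32 (edgeR adjusted p = 0.0317).

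*Rad51ap1*, a gene of homologous recombination, was at 35.2, 38.7 and 34.9 CPM in Ctr, at 32.7, 31.6, 39.1 and 32.6 CPM in Ctr + 4-OHT and at 25.1, 31.0, 26.2 and 26.3 CPM in *Smg6*-iKO. The highest *Smg6*-iKO library, from SMH_128, came within 1 CPM of the lowest Ctr + 4-OHT library, and the others were well below. *Rad51ap1* fell against Ctr by 0.42 on the log2 scale (standard error 0.079, edgeR adjusted p = 0.0119), and the value against Ctr + 4-OHT was -0.31 (standard error 0.089, edgeR adjusted p = 0.121). *Rad51b* was low, at 9.88, 11.5 and 9.64 CPM in Ctr, at 8.002, 10.2, 12.05 and 8.55 CPM in Ctr + 4-OHT and at 7.52, 7.74, 8.12 and 7.75 CPM in *Smg6*-iKO. Its *Smg6*-iKO libraries were nearly equal, below every Ctr library, and one of them overlapped the lowest Ctr + 4-OHT library. *Rad51b* differed by -0.31 (edgeR adjusted p = 0.262) against Ctr + 4-OHT and by -0.41 (edgeR adjusted p = 0.0273) against Ctr.

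Of the other genes of this pathway, *Xrcc2* and *Rad54l* (a motor protein of recombination) fell against Ctr by 0.25 and 0.21 on the log2 scale (edgeR adjusted p = 0.0471 and 0.0476). *Brca2*, a tumour suppressor of this pathway, was at 43.9, 50.4 and 46.9 CPM in Ctr, at 48.1, 43.2, 51.2 and 57.2 CPM in Ctr + 4-OHT and at 42.6, 43.3, 48.2 and 44.0 CPM in *Smg6*-iKO. The 3 groups overlapped, with values of -0.15 (standard error 0.087, edgeR adjusted p = 0.41) and -0.08 (standard error 0.067, edgeR adjusted p = 0.48). *Xrcc3*, *Rad51d* and *Palb2* did not pass the threshold either, at -0.17, 0.06 and -0.01 against Ctr + 4-OHT and at -0.32, 0.00 and 0.10 against Ctr.

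*Rad51c* stood apart from the other members and was singled out after its values were seen. It was at 11.6, 11.9 and 5.59 CPM in Ctr, at 5.02, 4.56, 10.6 and 5.16 CPM in Ctr + 4-OHT and at 4.93, 8.65, 9.31 and 5.22 CPM in *Smg6*-iKO. The libraries thus fell into a high and a low level in each of the 3 groups, and SMH_128 and SMH_132 were high and SMH_133 low both with and without deletion. Its coefficient of variation reached 45.2% in Ctr + 4-OHT, while no other member exceeded 18.8%. The log2 fold change of *Rad51c* was 0.15 against Ctr + 4-OHT (edgeR adjusted p = 0.853) and -0.48 against Ctr (edgeR adjusted p = 0.304), neither past the threshold. Single libraries decided both values: against Ctr + 4-OHT it was -0.03 without SMH_132 of *Smg6*-iKO and 0.52 without SMH_129 of Ctr + 4-OHT, and against Ctr it was -0.32 without SMH_132 and -0.76 without SMH_133 of Ctr. With the culture number as a block the value against Ctr was -0.31 (edgeR adjusted p = 0.0312, and 0.00569 to 0.51 over the alternative settings). *Tex14*, whose product forms intercellular bridges between germ cells, starts 110 bases away and is read in the opposite direction. It was at 1.49, 1.95 and 1.19 CPM in Ctr, at 0.707, 1.23, 1.49 and 0.813 CPM in Ctr + 4-OHT and at 1.22, 1.58, 1.797 and 1.202 CPM in *Smg6*-iKO, so that it too was lower in SMH_133 than in SMH_128 and SMH_132. So were *Rnu1a1* (1.03 against 1.35 and 1.69 CPM in Ctr) and *Gm22068* (0.842 against 0.971 and 1.44 CPM in Ctr), also in *Smg6*-iKO. Both lie within the span of *Tex14* and do not start in the gap between *Rad51c* and *Tex14*. *Ppm1e*, a phosphatase gene on the other side of *Rad51c*, was at 69.1, 65.2 and 65.1 CPM in Ctr and at 71.3, 69.9 and 69.1 CPM in the same 3 cultures in *Smg6*-iKO, without such a gap. SMH_133 was at least 0.5 log2 units below both others in both groups in 57 of 17974 genes (0.317%), and *Rad51c* was the only member among them. A part of the start region in these levels was not tested. The bases between the starts of *Rad51c* and *Tex14* are shown because this gap holds the start region of both genes (RefSeq, GRCm38.p6, chr11:87404955-87405064, minus strand, 5′ to 3′).
Rad51c–Tex14 gap: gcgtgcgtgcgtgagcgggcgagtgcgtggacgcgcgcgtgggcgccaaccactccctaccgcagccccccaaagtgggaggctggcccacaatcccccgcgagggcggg

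**Figure D3:**
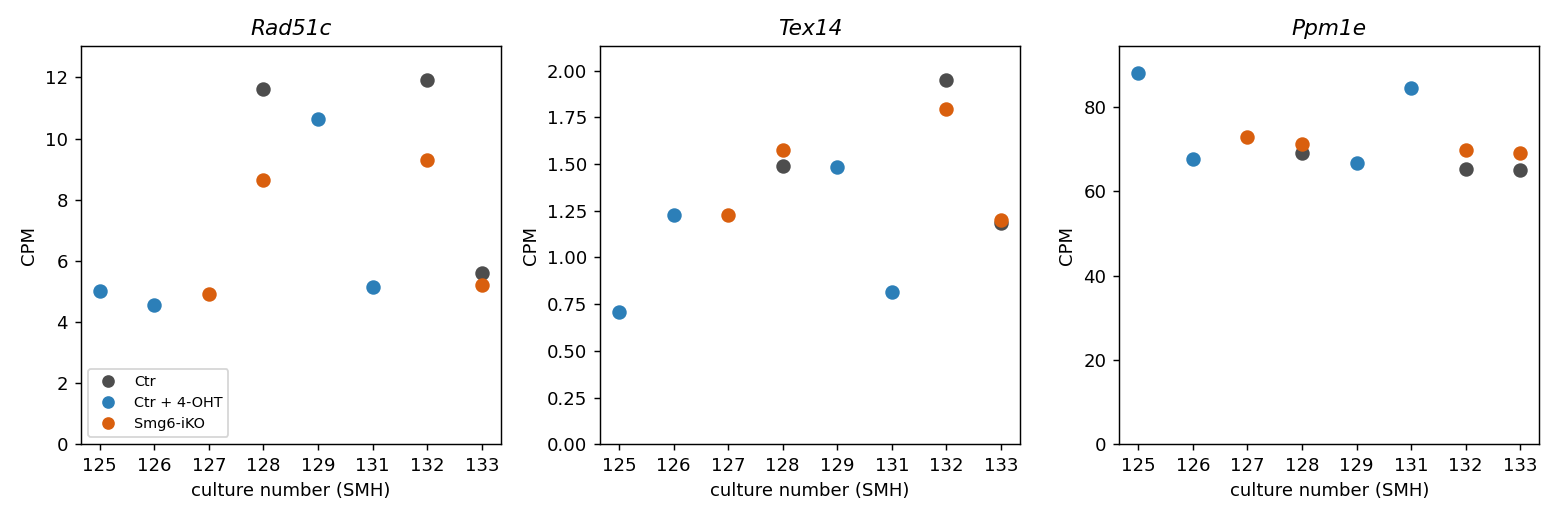
Level of *Rad51c*, *Tex14* and *Ppm1e* (y axes, CPM, from 0) by culture number (x axis), 1 point per library, coloured by group. *Rad51c* is at 8.65 CPM or more in SMH_128, SMH_129 and SMH_132 and at 5.59 CPM or less in the other cultures, whatever the group.

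In the Fanconi anaemia pathway the members went in both directions (medians -0.11 and -0.05). *Fancm* (ENSMUSG00000055884), the helicase that recognises stalled forks and recruits the core complex (chromosome 12, 65075603 to 65132058), was at 41.5, 42.2 and 43.9 CPM in Ctr, at 43.7, 42.4, 45.8 and 46.6 CPM in Ctr + 4-OHT and at 52.5, 51.9, 51.6 and 53.6 CPM in *Smg6*-iKO. All 4 *Smg6*-iKO libraries were above all 7 controls, with a gap of about 5 CPM. *Fancm* rose against Ctr by a log2 fold change of 0.30 (standard error 0.053, edgeR adjusted p = 0.00846), and the value against Ctr + 4-OHT was 0.24 (standard error 0.054, edgeR adjusted p = 0.067). *Fancd2*, which is clamped onto crosslinked DNA by the core complex, fell against Ctr by 0.27 (edgeR adjusted p = 0.0209), at 54.0, 57.1 and 56.9 CPM in Ctr and 43.3, 49.0, 47.2 and 45.9 CPM in *Smg6*-iKO. In Ctr + 4-OHT it was at 50.7, 51.2, 59.0 and 54.0 CPM, also above every *Smg6*-iKO library. *Fancg*, a core complex subunit, was at 17.3 to 18.9 CPM in *Smg6*-iKO and at 15.1 to 17.03 CPM in the 7 controls, without passing the threshold (0.19 and 0.15). The remaining members, *Fanca*, *Fancb*, *Fancc*, *Fancl*, *Fanci* and *Brip1*, were between -0.22 and 0.00 against Ctr + 4-OHT and between -0.24 and 0.04 against Ctr.

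**Figure D4:**
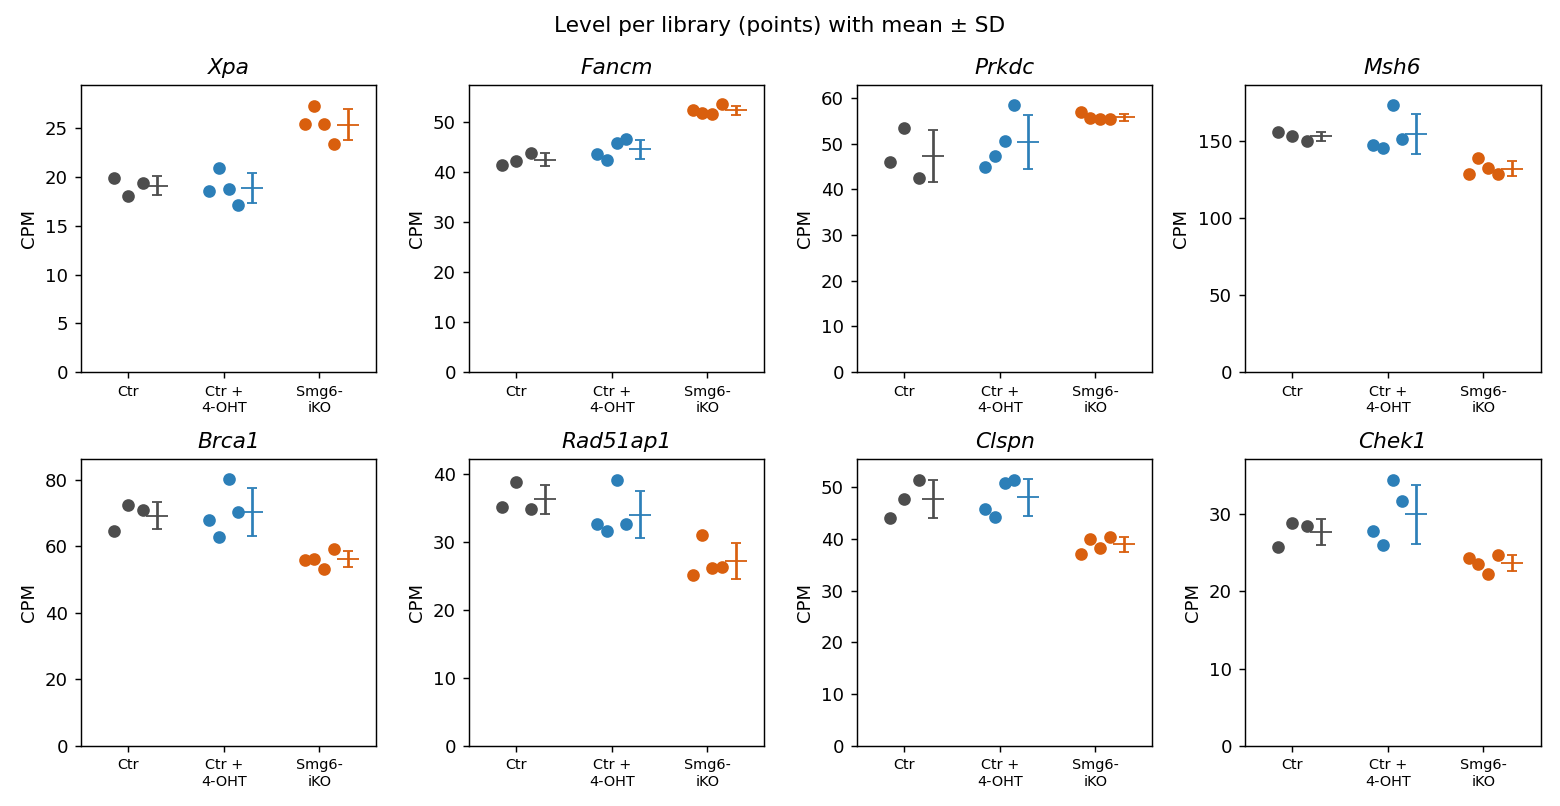
Level (y axis, CPM, from 0) of 8 genes in each library (points) of Ctr, Ctr + 4-OHT and *Smg6*-iKO, with the mean and SD beside the points. *Xpa* and *Fancm* are higher in all 4 *Smg6*-iKO libraries than in any control, *Msh6*, *Brca1*, *Rad51ap1*, *Clspn* and *Chek1* are lower, and *Prkdc* overlaps Ctr + 4-OHT.

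End joining showed no gene past the threshold in either comparison (medians -0.05 and -0.07). *Xrcc5* and *Xrcc6* encode Ku80 and Ku70, the ring that slides onto broken ends. *Xrcc5* was at 43.6, 46.0 and 39.9 CPM in Ctr, at 36.8, 38.0, 41.9 and 39.2 CPM in Ctr + 4-OHT and at 35.9, 40.0, 35.7 and 35.1 CPM in *Smg6*-iKO. The *Smg6*-iKO library of SMH_128 overlapped both controls, and the values were -0.08 (edgeR adjusted p = 0.602) and -0.24 (edgeR adjusted p = 0.0549). With the culture number as a block the value against Ctr was -0.23 (edgeR adjusted p = 0.0151, and 0.00628 to 0.083 over the alternative settings). *Xrcc6* was at 55.3, 55.0 and 58.9 CPM in Ctr, at 56.3, 52.6, 58.5 and 57.2 CPM in Ctr + 4-OHT and at 50.5, 54.7, 55.2 and 55.0 CPM in *Smg6*-iKO. It overlapped throughout (-0.05, edgeR adjusted p = 0.72, and -0.07, edgeR adjusted p = 0.507), with intervals (log2 fold change ± 1.96 standard errors) of -0.16 to 0.06 and -0.18 to 0.05.

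*Prkdc*, the kinase that Ku recruits, was at 46.1, 53.5 and 42.4 CPM in Ctr, at 45.0, 47.3, 50.7 and 58.5 CPM in Ctr + 4-OHT and at 57.0, 55.6, 55.4 and 55.4 CPM in *Smg6*-iKO. Its *Smg6*-iKO libraries were nearly equal and above every Ctr library, but one Ctr + 4-OHT library was higher still. For *Prkdc* the values were 0.16 (standard error 0.080, edgeR adjusted p = 0.351) and 0.24 (standard error 0.076, edgeR adjusted p = 0.0726), and with the block 0.23 (edgeR adjusted p = 0.0128, and up to 0.166 over the alternative settings). *Xrcc4* and *Lig4*, which together seal the ends, were at -0.12 and 0.04 against Ctr + 4-OHT and at -0.07 and 0.08 against Ctr.

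Break-end processing had 6 of 6 negative values against Ctr + 4-OHT (median -0.12) and 5 of 6 against Ctr (median -0.12), none past the threshold. *Exo1*, an exonuclease that also serves mismatch repair, was at 25.8, 30.04 and 32.8 CPM in Ctr, at 31.3, 29.4, 36.1 and 34.9 CPM in Ctr + 4-OHT and at 24.8, 24.8, 27.6 and 29.7 CPM in *Smg6*-iKO. Only SMH_133 of *Smg6*-iKO reached into the range of Ctr + 4-OHT, and Ctr was overlapped more widely. *Exo1* was at -0.29 (standard error 0.088, edgeR adjusted p = 0.141) against Ctr + 4-OHT and at -0.14 (standard error 0.094, edgeR adjusted p = 0.352) against Ctr. The helicases *Blm* and *Wrn* were at -0.22 and -0.10 against Ctr + 4-OHT and at -0.17 and -0.15 against Ctr. Every *Smg6*-iKO library of *Blm* lay below every Ctr library. With the culture number as a block *Blm* passed against Ctr, at -0.19 (edgeR adjusted p = 0.0284, and 0.0136 to 0.261 over the alternative settings). *Mre11a*, *Rad50* and *Nbn*, whose products form the complex that first binds broken ends, were at -0.02, -0.01 and -0.15 against Ctr + 4-OHT. Against Ctr they were at -0.05, 0.08 and -0.10.

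The 2 mismatch repair genes were on opposite sides of 0. *Msh6* (ENSMUSG00000005370, chromosome 17, 87975050 to 87990883) was at 155.6, 153.1 and 150.2 CPM in Ctr, at 147.3, 145.2, 173.6 and 151.4 CPM in Ctr + 4-OHT and at 128.4, 138.9, 132.7 and 128.7 CPM in *Smg6*-iKO. Every *Smg6*-iKO library was below every control. *Msh6* fell against Ctr by 0.21 on the log2 scale (standard error 0.050, edgeR adjusted p = 0.0294), and the value against Ctr + 4-OHT was -0.21 (standard error 0.065, edgeR adjusted p = 0.139). *Pms2*, a subunit of the nuclease that nicks the mismatched strand, was at 0.15 (edgeR adjusted p = 0.257) and 0.11 (edgeR adjusted p = 0.271).

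The 6 listed genes of base excision and single-strand break repair had 6 of 6 negative values against Ctr + 4-OHT (median -0.12). Against Ctr 5 of 6 were negative (median -0.13), and no gene passed the threshold in either comparison. The 18 other genes of this pathway did not share this direction. Of these, 9 were negative against Ctr + 4-OHT and 8 against Ctr, with medians of 0.03 and 0.06. *Parp1* was at 245, 257 and 277 CPM in Ctr, at 277, 245, 275 and 269.6 CPM in Ctr + 4-OHT and at 228, 238, 238 and 256 CPM in *Smg6*-iKO. Its groups overlapped through SMH_133 of *Smg6*-iKO, and the values were -0.14 (standard error 0.059, edgeR adjusted p = 0.271) and -0.11 (standard error 0.061, edgeR adjusted p = 0.27). *Ung*, the glycosylase that removes uracil, was at 14.8, 16.1 and 19.7 CPM in Ctr, at 15.7, 15.01, 16.7 and 17.5 CPM in Ctr + 4-OHT and at 13.2, 12.8, 13.2 and 17.1 CPM in *Smg6*-iKO. Of these libraries only SMH_133 lay within the controls, and that culture was also the highest of Ctr. *Ung* was at -0.19 (edgeR adjusted p = 0.385) and -0.26 (edgeR adjusted p = 0.213), and with the block at -0.23 (edgeR adjusted p = 0.037, and 0.0185 to 0.278 over the alternative settings). *Apex1* (70.0 to 75.4 CPM in *Smg6*-iKO, 75.7 to 87.4 CPM in the controls) and *Lig3*, a ligase that closes single-strand breaks (99.97 to 103 and 107 to 115 CPM), were also below every control, at -0.15 and -0.10 against Ctr + 4-OHT. Against Ctr they were at -0.15 and -0.16 (edgeR adjusted p = 0.157 and 0.0557, or 0.0326 and 0.0169 with the block).

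None of the 4 listed nucleotide excision repair genes had a negative value, and their median was 0.14 in both comparisons. Of the 23 other genes of the pathway, 14 were negative in each comparison, with medians of -0.04 against Ctr + 4-OHT and -0.04 against Ctr. Against Ctr + 4-OHT 5 of the 23 lay below every library of that control (5.99% of all genes) and 1 above (5.03%). None of the 23 passed the threshold by edgeR (1.17% of all genes), with 6 at an unadjusted p under 0.05 beside 2930 of all 17558 genes. Against Ctr 3 fell (4.98% of all genes) and 1 rose (4.27%), or 3 and 3 with the block (11.2% and 10.3%), and 4 lay below and 5 above every Ctr library (11.9% and 11.4%). *Xpa* (ENSMUSG00000028329), the protein that verifies the damaged strand and holds the repair complex together (chromosome 4, 46155347 to 46196311), was at 19.9, 18.1 and 19.4 CPM in Ctr, at 18.6, 20.9, 18.8 and 17.1 CPM in Ctr + 4-OHT and at 25.4, 27.3, 25.4 and 23.4 CPM in *Smg6*-iKO. The lowest *Smg6*-iKO library was above the highest control. The mean of *Smg6*-iKO was 25.4 ± 1.61 CPM (SD, n = 4), compared with 18.9 ± 1.55 CPM (SD, n = 4) when 4-OHT was given without the recombinase and 19.1 ± 0.945 CPM (SD, n = 3) without drug. *Xpa* rose by 35.6% against Ctr + 4-OHT (log2 fold change 0.44, standard error 0.078, edgeR adjusted p = 0.0285) and by 32.7% against Ctr (0.41, standard error 0.073, edgeR adjusted p = 0.00949). Against Ctr + 4-OHT the adjusted p lay between 0.0269 and 0.106 when single libraries were left out and stayed under 0.05 in 1 of 8 such fits, that without SMH_126 of Ctr + 4-OHT, while the log2 fold change stayed between 0.39 and 0.49. The 250 bases before the start of *Xpa* are shown as those of the one gene that rose in both comparisons, with its single match to CCAAT in capitals (RefSeq, GRCm38.p6, chr4:46196312-46196561, minus strand).
Xpa: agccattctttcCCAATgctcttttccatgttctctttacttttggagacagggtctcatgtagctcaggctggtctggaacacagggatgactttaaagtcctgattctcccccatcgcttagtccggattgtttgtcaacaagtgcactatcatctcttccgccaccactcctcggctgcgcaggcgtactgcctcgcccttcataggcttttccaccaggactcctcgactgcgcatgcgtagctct

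*Ercc3* and *Ercc2* encode the helicases of the TFIIH complex that open the DNA around a lesion. *Ercc3* was at 26.2, 26.6 and 27.2 CPM in Ctr, at 27.4, 27.6, 25.7 and 30.4 CPM in Ctr + 4-OHT and at 29.95, 30.9, 30.005 and 31.3 CPM in *Smg6*-iKO. It was above every Ctr library and overlapped Ctr + 4-OHT through SMH_131, with 0.15 (edgeR adjusted p = 0.276) and 0.19 (edgeR adjusted p = 0.0503, or 0.0287 with the block). *Ercc2* was at 71.5, 64.8 and 69.3 CPM in Ctr, at 66.7, 71.3, 73.4 and 63.8 CPM in Ctr + 4-OHT and at 62.8, 70.2, 73.9 and 67.9 CPM in *Smg6*-iKO. The 3 groups covered the same range. For *Ercc2* the log2 fold changes were 0.01 and 0.00 (standard errors 0.069 and 0.067, intervals -0.13 to 0.14 in both), and their sign turned under several alternative settings. *Ercc1*, part of the nuclease that cuts on one side of the lesion, was at 0.13 (edgeR adjusted p = 0.371) and 0.09 (edgeR adjusted p = 0.442).

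Among the checkpoint genes the kinases that sense damage differed little, and *Topbp1*, *Clspn* and *Chek1* of the ATR branch lay below every control library. *Atm*, the kinase activated by broken ends, was at 123.2, 137.3 and 131.1 CPM in Ctr, at 121.1, 123.6, 137.7 and 132.6 CPM in Ctr + 4-OHT and at 117.2, 120.5, 121.9 and 123.6 CPM in *Smg6*-iKO. *Atr*, the kinase activated by single-stranded DNA, was at 115.4, 139.5 and 121.8 CPM in Ctr, at 123.4, 121.0, 135.1 and 132.3 CPM in Ctr + 4-OHT and at 133.4, 139.5, 136.7 and 136.6 CPM in *Smg6*-iKO. Both kinases overlapped with the controls, *Atm* at the lower and *Atr* at the upper end. *Atm* was at -0.08 (standard error 0.054, edgeR adjusted p = 0.49) and -0.11 (standard error 0.053, edgeR adjusted p = 0.207), and *Atr* at 0.10 (standard error 0.051, edgeR adjusted p = 0.337) and 0.12 (standard error 0.066, edgeR adjusted p = 0.267).

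*Chek1*, the effector kinase of ATR, was at 25.8, 28.9 and 28.5 CPM in Ctr, at 27.8, 26.0, 34.5 and 31.8 CPM in Ctr + 4-OHT and at 24.3, 23.5, 22.3 and 24.7 CPM in *Smg6*-iKO. Every *Smg6*-iKO library was below every control. *Chek1* had the most negative value of the 51 genes against Ctr + 4-OHT, -0.33 (standard error 0.091, edgeR adjusted p = 0.112), and was at -0.23 against Ctr (standard error 0.067, edgeR adjusted p = 0.0599, or 0.0197 with the block and 0.0102 to 0.178 over the alternative settings). *Clspn* encodes claspin, which passes the signal from ATR to CHK1. It was at 43.9, 47.8 and 51.4 CPM in Ctr, at 45.7, 44.2, 50.8 and 51.4 CPM in Ctr + 4-OHT and at 37.1, 40.0, 38.2 and 40.3 CPM in *Smg6*-iKO. The groups did not overlap. *Clspn* fell against Ctr by 0.29 (standard error 0.065, edgeR adjusted p = 0.022), and the value against Ctr + 4-OHT was -0.29 (standard error 0.068, edgeR adjusted p = 0.0715).

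*Topbp1*, the activator of ATR, was at 170.2, 187 and 191 CPM in Ctr, at 189, 168, 201 and 200.4 CPM in Ctr + 4-OHT and at 159.6, 165, 154 and 168 CPM in *Smg6*-iKO, below every control by a narrow margin. Its values were -0.22 (edgeR adjusted p = 0.131) and -0.18 (edgeR adjusted p = 0.0817, or 0.0269 with the block). *Timeless*, which travels with the replication fork, was at -0.23 and -0.30 (edgeR adjusted p = 0.257 and 0.0654, the latter 0.00251 with the block). *Chek2*, the effector kinase of ATM, was at 23.6, 22.4 and 22.3 CPM in Ctr, at 21.7, 22.02, 26.9 and 22.1 CPM in Ctr + 4-OHT and at 19.95, 24.1, 22.9 and 22.1 CPM in *Smg6*-iKO. The groups overlapped, with -0.05 and -0.03 (standard errors 0.090 and 0.076, intervals -0.23 to 0.13 and -0.18 to 0.11).

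Single libraries decided several calls against Ctr. Of 7 fits with one library left out, *Fancm* passed in 7, *Xpa*, *Brca1* and *Rad51ap1* in 6, *Rad51b* in 3, *Bard1*, *Clspn* and *Fancd2* in 2, *Msh6* in 1 and *Xrcc2* and *Rad54l* in 0. Calls over all genes moved too, from 1663 with all libraries to 578, 574 and 1018 without SMH_128, SMH_132 and SMH_133 of Ctr and to 843, 2524, 986 and 570 without SMH_127, SMH_128, SMH_132 and SMH_133 of *Smg6*-iKO. The number of the 51 genes past the threshold was 2 without SMH_132 of Ctr, 5 without SMH_128 and 7 without SMH_133 of Ctr, and 4, 12, 6 and 4 without SMH_127, SMH_128, SMH_132 and SMH_133 of *Smg6*-iKO. Without SMH_132 of Ctr, *Xpa*, *Brca1* and *Rad51ap1* had edgeR adjusted p values of 0.0517, 0.0637 and 0.0524.

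The listed genes were next compared with 104 other repair genes, taken as a list of the same pathways and of translesion synthesis. Against Ctr + 4-OHT, 2 of the 104 fell and none rose, beside 0.416% lower and 0.757% higher of all genes tested. Their median was -0.05 with 61 negative values, where 47.2% of all genes were negative. *Usp1*, which removes ubiquitin from FANCD2 and PCNA, was at 59.9, 67.3 and 66.0 CPM in Ctr, at 72.2, 65.7, 76.6 and 70.6 CPM in Ctr + 4-OHT and at 54.2, 56.5, 46.8 and 51.5 CPM in *Smg6*-iKO. *H2afx*, the histone variant that is phosphorylated around breaks, was at 114.8, 110.02 and 135.2 CPM in Ctr, at 118.7, 111.6, 129.3 and 132.7 CPM in Ctr + 4-OHT and at 99.2, 91.97, 94.6 and 98.9 CPM in *Smg6*-iKO. Both were below every control library. *Usp1* fell by 0.44 (standard error 0.072, edgeR adjusted p = 0.0218) against Ctr + 4-OHT and by 0.30 (edgeR adjusted p = 0.0328) against Ctr, and *H2afx* by 0.34 (standard error 0.064, edgeR adjusted p = 0.035) and 0.32 (edgeR adjusted p = 0.023). Against Ctr + 4-OHT, *Usp1* passed in 3 and *H2afx* in 1 of 8 fits with one library left out (edgeR adjusted p between 0.0273 and 0.0747 and between 0.026 and 0.114). Against Ctr, 13 of the 104 genes fell and 3 rose, beside 4.98% lower and 4.27% higher of all genes tested. With the culture number as a block 18 fell and 7 rose, beside 11.2% and 10.3% of all genes. The 3 that rose without the block, named after their values were seen, were *Ercc8* of transcription-coupled repair, the ubiquitin ligase *Rnf168* and the translesion polymerase *Rev1*. Their log2 fold changes were 0.30, 0.26 and 0.25 (edgeR adjusted p = 0.0152, 0.0328 and 0.0474). None of the 104 was called between the 2 controls by edgeR, with 3 at an unadjusted p under 0.05.

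Because SMG6 acts in NMD, the genes were also split by annotation. Of the 51 genes, 20 (39.2%) have at least one transcript annotated as an NMD target, compared with 27.6% of the protein-coding genes tested against Ctr + 4-OHT. Their median log2 fold change against Ctr + 4-OHT was -0.07 (1 rose), and that of the other 31 genes -0.11 (0 passed in either direction). Over all protein-coding genes tested the medians were 0.027 and 0.0049, with 49 higher and 9 lower calls of 3846 genes with such a transcript and 60 higher and 61 lower of 10081 without. Against Ctr, 2 of the 20 genes rose and 3 fell, while of the other 31 none rose and 6 fell. Over all protein-coding genes tested against Ctr, 229 rose and 191 fell of 3866 with such a transcript, and 458 rose and 678 fell of 10207 without. The counts are per gene and do not separate transcripts.

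Promoter windows from 250 bases before to 50 bases after the start, taken from RefSeq on GRCm38.p6, were found for 42 of the 51 genes. They were searched on both strands for the E2F octamers TTTCCCGC, TTTGGCGC, TTTCGCGC and TTTGCCGC, for the cell cycle homology region TTTGAA and for CCAAT, none of which contains another. At least one E2F octamer was present in 9 of the 42 genes with a window (21.4%). This compares with 4.61% of 11571 tested genes and 2.6% of 27025 gene symbols in all. The 9 genes were *Fancg*, *Chek2*, *Clspn*, *Topbp1*, *Xrcc6*, *Bard1*, *Brca2*, *Rad51c* and *Msh6*. CCAAT was found in 59.5% of the 42 genes and in 42.7% of the tested genes with a window, and TTTGAA in 4.76% and 14.1%. The median log2 fold change of the 9 genes with an E2F octamer was -0.15 against Ctr + 4-OHT and -0.18 against Ctr, and that of the 33 genes without was -0.10 and -0.11. Over all tested genes the medians with and without an octamer were -0.023 and 0.014 against Ctr + 4-OHT. The bases just before the start of 3 of these genes are given 5′ to 3′, cut to the part outside the annotated gene, with the octamer or its complement in capitals, for a gene that fell (*Bard1*, chr1:71103147-71103222, minus strand), one below every control (*Topbp1*, chr9:103305077-103305214, plus strand) and one that overlapped the controls (*Chek2*, chr5:110839733-110839978, plus strand). The octamer was thus present in genes with different values.
Bard1: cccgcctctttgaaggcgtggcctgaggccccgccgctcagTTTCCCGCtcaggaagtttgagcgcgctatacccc
Topbp1: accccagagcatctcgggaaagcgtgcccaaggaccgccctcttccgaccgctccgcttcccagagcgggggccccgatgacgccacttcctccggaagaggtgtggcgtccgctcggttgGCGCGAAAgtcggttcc
Chek2: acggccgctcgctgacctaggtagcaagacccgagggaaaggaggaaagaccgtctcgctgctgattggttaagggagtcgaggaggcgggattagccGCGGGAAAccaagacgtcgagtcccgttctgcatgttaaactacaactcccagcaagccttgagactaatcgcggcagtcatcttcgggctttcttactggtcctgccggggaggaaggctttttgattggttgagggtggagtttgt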

How the data were processed

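Groups, culture numbers and treatments were taken from the sample labels. The authors mapped 50-base reads to GRCm38 with STAR 2.5.4b and counted, with featureCounts 1.5.0 and Ensembl release 92, stranded reads that hit one position and one gene, and these raw counts per gene were deposited beside the exon length of each gene. Totals lay between 26418249 and 33756875 counts per library, and errors cover both counting and differences between cultures. Symbols were found for 53620 of 53801 genes.

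In R 4.3.3 edgeR 4.0.16 was run for each comparison on the 2 groups it concerns (filterByExpr, TMM, quasi-likelihood test, Benjamini-Hochberg adjustment over all genes tested, threshold 0.05). The square root of F gave the standard error of each log2 fold change. CPM are TMM-normalized over 11 libraries (18123 genes kept). Alternatives were DESeq2 1.42.0 (Wald test, size factors), limma 3.58.1 (voom), upper-quartile normalization, no filter, all libraries in one fit, a gene length offset (loess span 0.3), the culture number as a block and each library left out. The study's methods used DESeq2 without a block.

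The numbers SMH_128, SMH_132 and SMH_133 stand in the labels of both a Ctr and a *Smg6*-iKO library. The labels do not say whether a number is an embryo. The study counts 3 embryos for Ctr and 4 for each other group, the same as the numbers of libraries. Across 17974 genes, deviations from the group mean correlated at 0.336, 0.406 and 0.438 between libraries of one number and at -0.272 to 0.0909 between numbers, so the number was used as the block. SMH_127 has no Ctr library and adds nothing to the blocked contrast. P-values measure the spread between these libraries. No 2 libraries of a group were duplicates (chi-square of 11.0 or more per gene).

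The members and lists were chosen with earlier results of these data known. Named were every gene past the threshold against Ctr + 4-OHT, the member with the largest absolute log2 fold change of each pathway, *Atm*, *Atr*, *Chek1*, *Chek2*, *Brca1*, *Brca2*, *Prkdc*, *Parp1*, *Xrcc5*, *Xrcc6* and *Ercc2*, and the 5 largest rises and falls past the threshold against Ctr; others were named to complete their pathway or, where stated, after their values were seen. The scripts were tested on simulated data. Of 1.25-fold changes edgeR recovered 6.12% against Ctr + 4-OHT, 14.3% against Ctr and 4% between the controls. Of 1.5-fold changes it recovered 58%, 72% and 24.5%. A gene that did not pass the threshold can therefore still differ by such amounts. Promoter windows were taken from RefSeq; those of 9 members, and protein sequences, were not used here.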

Additional observations from a re-analysis of the deposited data

Results flagged for a closer look

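Of 102 groups of 4 libraries (51 genes in Ctr + 4-OHT and in *Smg6*-iKO), 9 held a library whose gap to the nearest other library exceeded the 95% critical value of Dixon's test (8.82%, where chance gives about 5%, 1 in 20). The 3 Ctr libraries were too few for this check. In Ctr + 4-OHT, the library of SMH_129 was high for *Rad51c* (10.6 CPM, the others 4.56 to 5.16), *Rad51ap1* (39.1 CPM, the others 31.6 to 32.7) and *Chek2* (26.9 CPM, the others 21.7 to 22.1), and that of SMH_126 was low for *Xrcc3* (6.70 CPM, the others 7.69 to 7.82). In *Smg6*-iKO, the library of SMH_128 was high for *Xrcc5* (40.0 CPM, the others 35.1 to 35.9) and that of SMH_133 was high for *Ung* (17.1 CPM, the others 12.8 to 13.2). The library of SMH_127 was low for *Xrcc6* (50.5 CPM, the others 54.7 to 55.2) and high for *Prkdc* (57.0 CPM, the others 55.4 to 55.6), and that of SMH_132 was low for *Apex1* (70.0 CPM, the others 75.0 to 75.4). For *Prkdc* the whole range of the group was under 2 CPM.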

How the results depend on the processing

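Against Ctr + 4-OHT, where edgeR called 1 of the 51 genes, the count was 10 with the Wald test of DESeq2, 11 with that test on all 11 libraries, 4 with all libraries in one edgeR fit, and 2 each with the gene length offset, no filter and upper-quartile normalization; it was 0 to 1 with one library left out (1 only without SMH_126 of Ctr + 4-OHT). Against Ctr, where 11 were called, it was 18 with DESeq2, 5 with all libraries in one fit, 19 with the gene length offset, and 2 (without SMH_132 of Ctr) to 12 (without SMH_128 of *Smg6*-iKO) with one library left out. Pairing by culture number, as a block, gave 22, and 23 together with the length offset. The cause was not tested. Between the controls the count was 0 in every setting run.

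The median against Ctr was -0.15 with the length offset, which moved the median of all genes to -0.03, and -0.15 to -0.08 with one library left out; against Ctr + 4-OHT it was -0.13 to -0.07. Over all genes the length offset also moved the split against Ctr + 4-OHT from 73 lower of 206 calls to 156 of 250, and against Ctr from 896 lower of 1663 to 1405 of 1955; upper-quartile normalization gave 694 lower of 1783 against Ctr. With one library left out, the sign turned in 8 of the 51 genes against Ctr + 4-OHT, 8 against Ctr and 23 between the controls; apart from *Rad51c* (0.15 against Ctr + 4-OHT, -0.03 to 0.52) their values with all libraries were at most 0.059 from 0. *Ercc2* against Ctr + 4-OHT was at -0.0080 and -0.0065 with DESeq2 (all and compared libraries), -0.0026 with all libraries in one fit, -0.0488 with the length offset and -0.0354 to 0.0485 with one library left out; against Ctr it was at -0.0033, -0.0041, -0.0441 (length offset) and -0.0458 to 0.0454. *Chek2* was at 0.0156 against Ctr with the block, and with one library left out at -0.0743 to 0.0154 against Ctr and -0.0936 to 0.0260 against Ctr + 4-OHT. Between the controls *Xrcc6* was at 0.0036 without the filter and 0.0005 with upper-quartile normalization, and with one library left out the values ran from -0.0263 to 0.0324 for *Xrcc6*, -0.0600 to 0.0188 for *Atm*, -0.0322 to 0.0476 for *Ercc2*, -0.0476 to 0.0417 for *Msh6*, -0.0541 to 0.0627 for *Chek2*, -0.0465 to 0.0724 for *Brca1*, -0.0458 to 0.0729 for *Clspn*, -0.0731 to 0.0297 for *Xpa*, -0.0305 to 0.110 for *Atr*, -0.0023 to 0.0924 for *Parp1*, -0.0223 to 0.137 for *H2afx* and -0.142 to 0.0742 for *Ung*.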
